A study of Homo sapiens with 24 samples.

Results

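The transcripts of 37 genes were followed that code for the ring-shaped complexes holding and folding chromosomes and for the ubiquitin ligase that ends mitosis: 7 genes of the cohesin ring and its PDS5 partners, 5 of the cohesin loader, the cohesin acetyltransferases and sororin, 8 of condensin, 2 of SMC5/6, and 15 of the anaphase-promoting complex (APC/C) with its activator FZR1. They were picked by gene symbol out of the 37967 genes of the deposited tables (29 in a count table, and the 6 SMC genes, STAG1 and STAG2, which it lacks, in a second table). All 37 had counts in each of the 24 samples and were among the 22833 genes tested. The cells were HCT116, an epithelial line from a human colorectal adenocarcinoma, and HCT116 oxpl-R, an oxaliplatin-resistant line raised from HCT116 by repeated pulses of a high dose of the drug. Both lines, controls included, carried a Tet-On transgene of adenoviral E1A, which doxycycline switches on.

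Each line was sequenced in 4 conditions with 3 biological replicates each: untreated (control), doxycycline alone (E1A), 25 µM oxaliplatin for 24 h (oxaliplatin), and oxaliplatin at the same dose and time with 0.5 µg/mL doxycycline added 3 h before it (E1A + oxaliplatin). The design asks how the resistant line differs from its parent, how each line responds to the platinum drug, and what E1A adds to either. The resistant line is 1 selected population, so a line difference cannot be told apart from what is peculiar to that population, and no group received doxycycline without carrying the transgene. The transgene itself has no row in the tables, so its induction was not measured here.

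Cohesin is a ring of SMC1A, SMC3 and RAD21 with a STAG subunit. It is loaded onto DNA by NIPBL and MAU2, locked by acetylation and sororin, and cut at anaphase once the APC/C has removed the inhibitor of separase. Condensin is built on SMC2 and SMC4 and compacts mitotic chromosomes. SMC5/6 works in DNA repair and at stalled replication forks, and the APC/C with FZR1 keeps mitotic regulators low from late mitosis through G1.

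Totals of the count table ran from 24838095 to 37927720 per sample. Levels are given as TMM-normalized CPM (counts scaled to a common library size), in the order of replicates 1, 2 and 3, and serve to compare samples, not genes. A gene is called higher or lower at a Benjamini-Hochberg adjusted p below 0.05 in edgeR's quasi-likelihood test over all genes of its table. Values with ± are log2 fold changes with an SE taken from the F statistic of that test (n = 3 a group). The test draws on the spread over all 24 samples, so this SE is not the spread of the compared replicates alone. Of 7 epithelial markers, 6 were present in every sample (CDX2, the lowest of these, from 24.7 to 78.8 CPM) and LGALS4 was at most 0.732 CPM. Of 6 markers of other cell types, PTPRC, PECAM1, DCN and ALB stayed at or below 0.418 CPM, COL1A2 ran from 0 to 13 CPM, and COL1A1 from 13 to 40.3 CPM. Oxaliplatin raised CDKN1A, the p53-induced inhibitor of cyclin-dependent kinases, by a log2 fold change of 3.70 ± 0.20 in HCT116 and 2.87 ± 0.19 in HCT116 oxpl-R (edgeR adjusted p = 5.97e-14 and 1.14e-11).

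**Figure D1:**
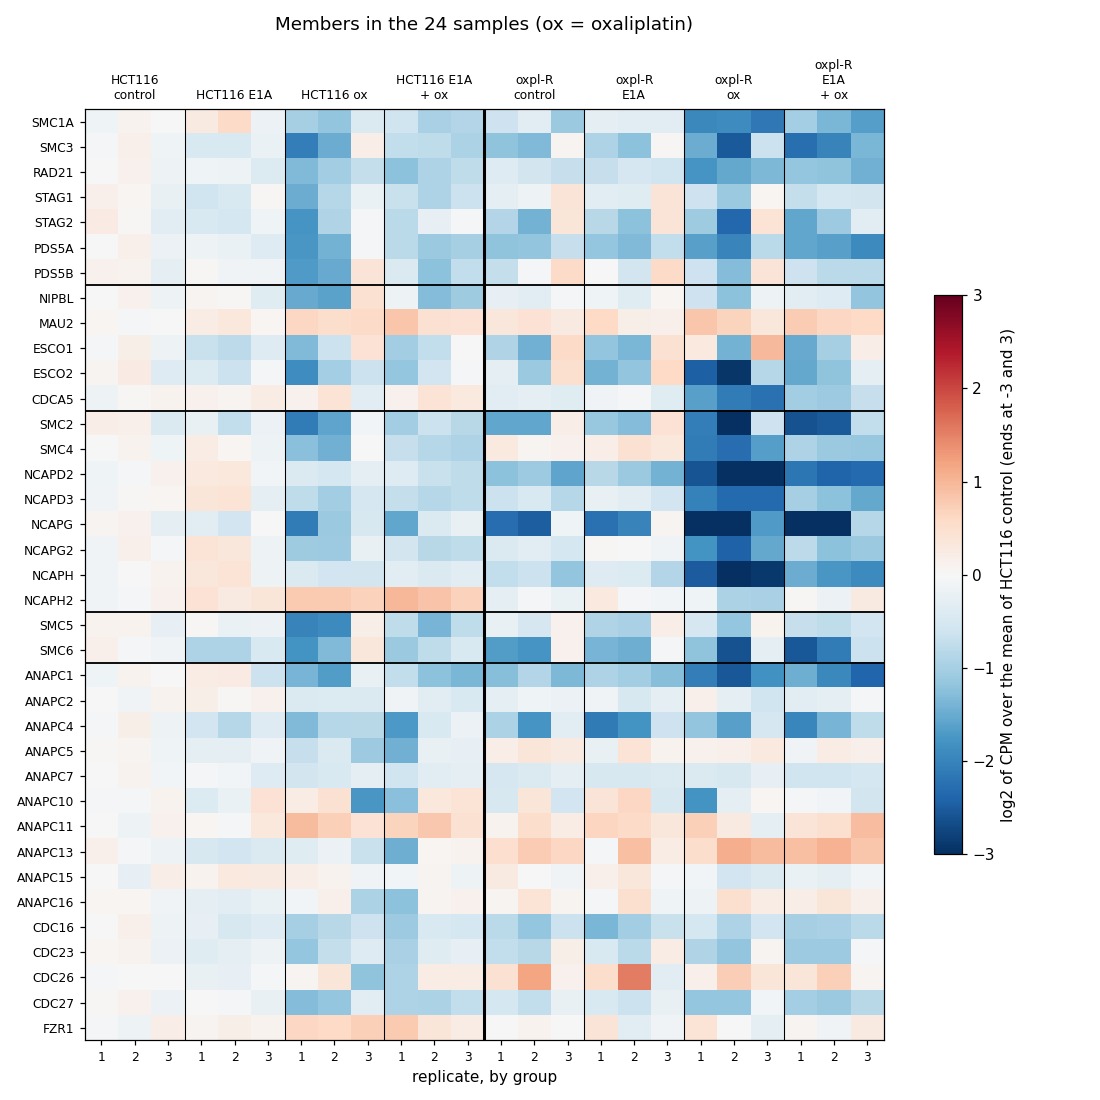
Level of each of the 37 genes (rows, in blocks from cohesin ring to APC/C) in each of the 24 samples (columns, replicates 1 to 3 in 8 groups), as log2 of CPM over the mean of the HCT116 controls, in color from -3 (blue) to 3 (red). The condensin rows NCAPD2, NCAPH, NCAPD3 and SMC4 are darkest blue in the 3 HCT116 oxpl-R oxaliplatin samples, and the third replicate of several rows differs from the other samples of its group.

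In oxaliplatin-treated HCT116 oxpl-R cells, 10 of the 37 genes were lower and none higher than in the untreated cells of that line, while 3.06% of all tested genes were called lower and 3.07% higher (5.18% lower among genes with a mean of 10 counts or more). Condensin accounted for 5 of the 10, namely SMC4, NCAPH, NCAPD2, NCAPD3 and NCAPG2. The others were sororin (CDCA5), the acetyltransferase ESCO2, the ring subunits SMC1A and RAD21, and ANAPC1 as the sole APC/C gene. The median log2 fold change was -1.54 over the 8 condensin genes, -0.50 over the cohesin ring and PDS5, and -0.09 over the APC/C, against 0.01 over all genes with a mean of 10 counts or more. Such libraries average over cells, so fewer cells in mitosis and less transcript per cell cannot be told apart.

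SMC4, an ATPase subunit common to condensin I and II, was at 133, 115 and 119 CPM in untreated HCT116 oxpl-R and at 25.3, 22.4 and 34.8 CPM under oxaliplatin. The groups lay far apart. Its log2 fold change was -2.15 ± 0.25 (edgeR adjusted p = 4.21e-07), the steepest fall among the 37 genes in this line. NCAPH, the kleisin that closes the condensin I ring, fell from 74.9, 80.5 and 55.5 CPM to 22.2, 15.7 and 17 CPM (log2 fold change -1.94 ± 0.19, edgeR adjusted p = 1.35e-08).

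NCAPD2, a HEAT-repeat subunit of condensin I, was at 171, 191 and 135.5 CPM without the drug and at 67.4, 50.3 and 47 CPM with it, so that every treated sample was below every untreated one (log2 fold change -1.59 ± 0.19, edgeR adjusted p = 4.04e-07). NCAPD3, its counterpart in condensin II, went from 108, 123 and 93.2 CPM to 41.3, 33.3 and 33.6 CPM (log2 fold change -1.58 ± 0.19). NCAPG2, also of condensin II, went from 78.8, 85.1 and 74.6 CPM to 30.7, 20 and 36.8 CPM (-1.45 ± 0.22). The remaining 3 condensin genes were not called: NCAPG (-1.51 ± 0.66), SMC2 (-0.96 ± 0.62) and NCAPH2 (-0.46 ± 0.19), of which the first 2 had the widest errors of the complex.

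CDCA5 codes for sororin, which keeps cohesin on replicated DNA until mitosis and is itself an APC/C substrate. It was at 134, 141 and 132 CPM in untreated HCT116 oxpl-R and at 54.9, 39.8 and 35.8 CPM under oxaliplatin, with no overlap (log2 fold change -1.64 ± 0.19, edgeR adjusted p = 2.33e-07). ESCO2, which acetylates SMC3 during S phase, was lower by the same amount with a larger error (-1.64 ± 0.48, edgeR adjusted p = 0.0355). Its values, 24.1, 13.5 and 40.8 CPM against 5.28, 3.84 and 16 CPM, overlapped between the groups. The call was lost when any of 4 single libraries was left out, and over all 6 libraries left out in turn the log2 fold change ranged from -2.53, without the third oxaliplatin library, to -1.16, without the third control.

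Among the cohesin ring genes of HCT116 oxpl-R, SMC1A went from 134, 164 and 96 CPM to 54.1, 55.5 and 46.9 CPM (log2 fold change -1.33 ± 0.21, edgeR adjusted p = 8.67e-05). RAD21, the kleisin that separase cuts, went from 353, 314 and 288 CPM to 136, 159 and 182 CPM (-1.0 ± 0.18, edgeR adjusted p = 0.000236). In both genes every treated sample was lower than every untreated one. SMC3 (-0.69 ± 0.44), STAG1 (-0.50 ± 0.29), PDS5A (-0.38 ± 0.29), PDS5B (-0.37 ± 0.41) and STAG2 (-0.12 ± 0.50) were not called.

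The APC/C was nearly flat in the resistant line: 14 of 15 genes were not called, with log2 fold changes from -0.41 (ANAPC15) to 0.24 (ANAPC13). The exception was ANAPC1, the large scaffold subunit, at 32.5, 43 and 31.4 CPM without the drug and 18.7, 13.7 and 22.4 CPM with it (-0.96 ± 0.29, edgeR adjusted p = 0.0426). Its call was lost without any of 4 single libraries, and over all 6 left out in turn the log2 fold change ran from -1.13 to -0.77. Of 20 listed substrates of the APC/C, 19 (CDCA5 among them) were lower in the same cells, with a median log2 fold change of -1.94. They included PLK1, a mitotic kinase (-2.80 ± 0.21), and CDC20, the co-activator of the APC/C in early mitosis (-2.74 ± 0.19). Of 24 mitotic regulators of these complexes, 17 were lower and none higher, and PLK1 and CDC20 are on both lists. Among all tested genes 3.06% were lower, and 5.18% of those with a mean of 10 counts or more. Only transcripts were measured, not APC/C activity or the protein of its substrates.

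**Figure D2:**
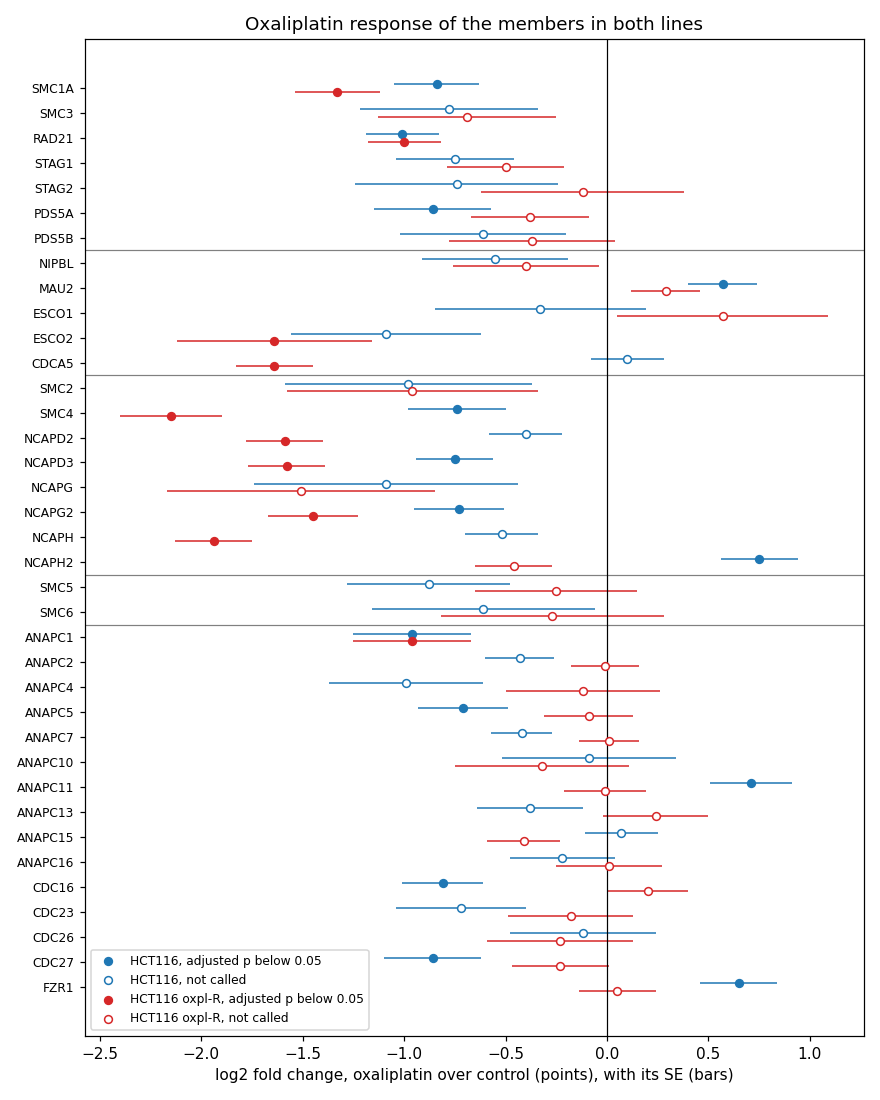
Log2 fold change of oxaliplatin over control (horizontal axis, bars are SE) for each of the 37 genes with HCT116 in blue and the resistant line in red, filled where the adjusted p was below 0.05. In the condensin block the red points lie left of the blue ones for SMC4, NCAPD2, NCAPD3, NCAPG2, NCAPH and NCAPH2, and in the APC/C block most red points lie near 0.

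In HCT116, oxaliplatin gave a different picture, with 4 genes higher and 10 lower (all tested genes: 8.99% higher, 8.43% lower; genes with a mean of 10 counts or more: 15.2% and 14.3%). The 4 that rose were the loader subunit MAU2, the condensin II kleisin NCAPH2 and, from the APC/C group, the RING subunit ANAPC11 and the activator FZR1. The 10 that fell were SMC1A, RAD21, PDS5A, SMC4, NCAPD3, NCAPG2, ANAPC1, ANAPC5, CDC16 and CDC27. Condensin had a median log2 fold change of -0.74, the cohesin ring and PDS5 of -0.78 and the APC/C of -0.42, against -0.08 over all genes with a mean of 10 counts or more.

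NCAPH2 was at 129, 134 and 151 CPM in HCT116 controls and at 238, 237 and 221 CPM under oxaliplatin, all above the controls (log2 fold change 0.75 ± 0.19, edgeR adjusted p = 0.0059). ANAPC11, which with ANAPC2 makes the catalytic core, rose from 116, 103 and 125 CPM to 221, 187 and 155 CPM (0.71 ± 0.20, edgeR adjusted p = 0.0145). FZR1 rose from 91.6, 85.4 and 108 CPM to 147, 145 and 155 CPM (0.65 ± 0.19, edgeR adjusted p = 0.0172). For MAU2, which binds NIPBL, the values were 55, 50.5 and 53.4 CPM against 80.9, 76.2 and 78.4 CPM (0.57 ± 0.17, edgeR adjusted p = 0.017). The treated and untreated samples did not overlap in any of these genes.

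RAD21 showed the clearest fall in HCT116, from 468, 504 and 416 CPM to 185, 223 and 283 CPM (log2 fold change -1.01 ± 0.18, edgeR adjusted p = 0.000202). With the GC trend of the libraries removed, an alternative chosen after seeing the data, it stood at -0.20 in HCT116 and at -0.89 in HCT116 oxpl-R, and was called in the latter line alone. NCAPD3 fell from 157, 172 and 175 CPM to 98.3, 82 and 118 CPM (-0.75 ± 0.19, edgeR adjusted p = 0.00535). ANAPC1 fell from 72, 85.9 and 79.9 CPM to 30.1, 24.8 and 67.7 CPM (-0.96 ± 0.29, edgeR adjusted p = 0.0202). In ANAPC1 the third treated replicate lay just under the controls and far above the other 2 treated samples. CDC27 (-0.86 ± 0.24) and CDC16 (-0.81 ± 0.20), which code for TPR subunits of the APC/C, and ANAPC5 (-0.71 ± 0.22) were also called lower.

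The third HCT116 oxaliplatin library stood apart in several of these genes. SMC3 was at 15.3 and 23 CPM in the first 2 treated samples and at 73.6 CPM in the third, above all 3 controls (62.4, 71.5 and 58.7 CPM). NIPBL had the same form, at 12.1 and 11.2 CPM and then 46.8 CPM, with controls from 30.7 to 37.3 CPM. ANAPC10 and CDC26 went the other way: ANAPC10 was at 24.8 and 29.1 CPM and then 6.38 CPM, and CDC26 at 22.7 and 27.7 CPM and then 9.41 CPM. The longest transcripts of SMC3 and NIPBL have 6607 and 10425 bases, those of ANAPC10 and CDC26 1674 and 871. Per doubling of transcript length, levels of expressed genes tilted by -0.22 and -0.19 (log2) in the first 2 treated libraries and by 0.19 in the third. Whether this tilt accounts for the values of the third library was not tested. Without this library 18 genes were called (4 higher, 14 lower), without the first treated library 6 (4 higher, 2 lower), without the second 7 (4 higher, 3 lower) and without the second control 5 (1 higher, 4 lower). RAD21 and NCAPH2 remained called whichever of the 6 libraries was left out, with log2 fold changes from -1.13 to -0.78 and from 0.70 to 0.88.

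The base composition of the libraries moved with this comparison. Per 10 percentage points of transcript GC, levels of expressed genes tilted by -0.26 to -0.09 (log2) in the HCT116 controls and by 0.19 to 0.46 in the HCT116 oxaliplatin samples, and by -0.22 to -0.13 in the controls and -0.34 to 0.20 in the oxaliplatin samples of HCT116 oxpl-R. The 4 genes that rose in HCT116 have transcripts of 57.2% to 63.8% GC, and the 10 that fell of 36% to 49.8%. Across the 37 genes the HCT116 log2 fold change had a Pearson correlation of 0.75 with GC (0.52 over 13156 genes, a description, since genes share the libraries), and the HCT116 oxpl-R one of 0.09. With each library's GC trend removed, 2 of the 37 genes were called in HCT116 (NCAPD3 and ANAPC2, both lower), and NCAPH2 stood at 0.32. In HCT116 oxpl-R 10 were still called, 9 of them shared. With the GC and length trends removed together 4 were called in HCT116 and 11 in HCT116 oxpl-R.

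**Figure D3:**
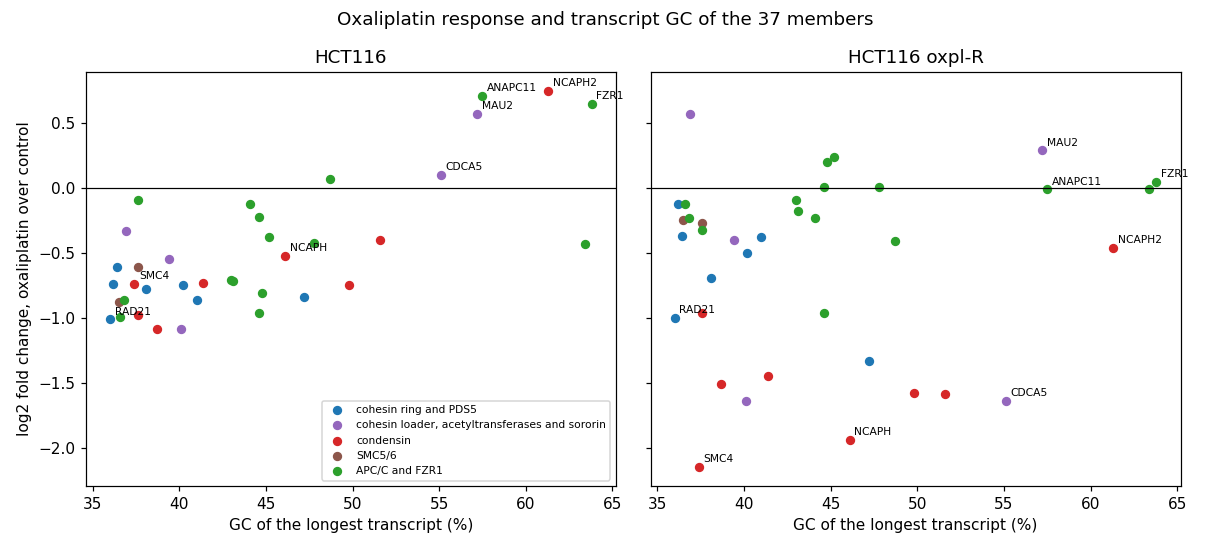
Log2 fold change of oxaliplatin over control (vertical axis) against the GC content of the longest transcript in percent (horizontal axis) for the 37 genes, colored by complex, in HCT116 (left) and HCT116 oxpl-R (right). In HCT116, 5 of the 6 genes above 0 have 55.1% GC or more, and in HCT116 oxpl-R SMC4 at 37.4% GC and CDCA5 at 55.1% both lie far below 0.

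The difference between the oxaliplatin responses of the lines was tested by the line by oxaliplatin interaction. It was called for 5 of the 37 genes, all with the lower response in HCT116 oxpl-R (2.07% of all tested genes were called in this direction and 3.51% of those with a mean of 10 counts or more). CDCA5 stood at 0.10 ± 0.18 in HCT116, where values of 153, 172 and 182 CPM met 186, 226 and 133 CPM, and at -1.64 in HCT116 oxpl-R, a difference of -1.74 ± 0.26 (edgeR adjusted p = 0.000142). The other 4 were condensin genes. NCAPH differed by -1.42 ± 0.26 (edgeR adjusted p = 0.00177), SMC4 by -1.41 ± 0.34 (0.0151), NCAPH2 by -1.21 ± 0.27 (0.00954) and NCAPD2 by -1.19 ± 0.26 (0.00888). NCAPH2 was called higher in HCT116 and had a value of -0.46 ± 0.19 in the resistant line.

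Of these, CDCA5, NCAPD2, NCAPH and NCAPH2 remained called with each of 12 libraries left out in turn, and SMC4 was lost without the second HCT116 oxpl-R oxaliplatin library. SMC4 rested in part on the third HCT116 oxaliplatin library, at 109.5 CPM against 46.1 and 40 CPM in the other treated samples, and its difference ran from -1.68 to -0.81 over the libraries left out. Without that library 8 genes were called, PDS5A, CDC16 and SMC5 then with the higher response in HCT116 oxpl-R. With the GC trend removed all 5 were still among 8 called. RAD21 had a difference of 0.00 ± 0.25, ANAPC1 of -0.01 ± 0.40 and SMC2 of 0.01 ± 0.88. These values depended on the GC trend: with it removed they were -0.69 for RAD21 (edgeR adjusted p = 0.157), -0.33 for ANAPC1 and -0.60 for SMC2, none of them called.

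**Figure D4:**
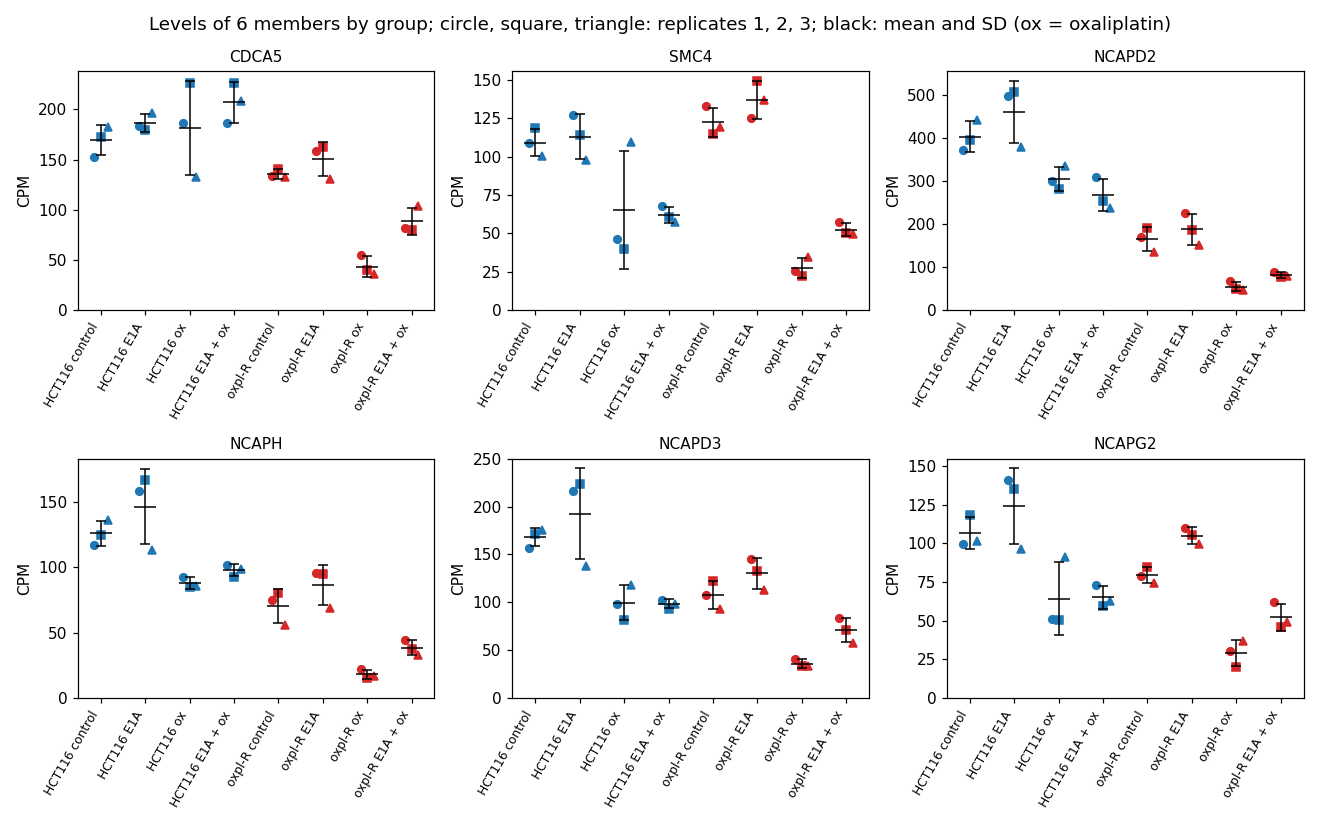
CPM (vertical axis, from 0) of CDCA5, SMC4, NCAPD2, NCAPH, NCAPD3 and NCAPG2 in the 8 groups (HCT116 in blue, HCT116 oxpl-R in red), with circles, squares and triangles for replicates 1, 2 and 3 and black marks for the mean and SD. All 6 were lowest in HCT116 oxpl-R with oxaliplatin, and the HCT116 oxpl-R samples with E1A + oxaliplatin lie above them.

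Without treatment the lines differed in 8 of the 37 genes, all lower in HCT116 oxpl-R, while 6.91% of all tested genes (11.7% of those with a mean of 10 counts or more) were lower and 7.20% higher. NCAPD2 led at 372, 397 and 443 CPM in HCT116 and 171, 191 and 135.5 CPM in HCT116 oxpl-R, groups that lay far apart (log2 fold change -1.28 ± 0.19). ANAPC1 had 72, 85.9 and 79.9 CPM against 32.5, 43 and 31.4 CPM (-1.15 ± 0.29, edgeR adjusted p = 0.00582). PDS5A, which binds the ring and regulates its release, had 139, 154 and 122 CPM against 60.2, 61 and 85.3 CPM (-1.0 ± 0.29, edgeR adjusted p = 0.0183). The rest were CDC16 (-0.86 ± 0.20), NCAPH (-0.84 ± 0.19), SMC1A (-0.65 ± 0.21), NCAPD3 (-0.64 ± 0.19) and RAD21 (-0.54 ± 0.18).

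Of the 8, NCAPD2, ANAPC1, CDC16 and NCAPH remained called with each of the 6 untreated libraries left out in turn. The count fell from 8 to 4 without the second HCT116 control, which took SMC1A, RAD21, PDS5A and NCAPD3 with it. A fit of the 6 untreated samples alone called 16 (3 higher, 13 lower), the 8 among them. The share of all genes called in that fit is not given. Per doubling of transcript length, levels of expressed genes tilted by 0.11 to 0.18 (log2) in the HCT116 controls and by -0.03 to 0.02 in those of HCT116 oxpl-R. Across the 37 genes the untreated line difference had a Pearson correlation of -0.45 with log2 transcript length, a description. Fewer genes were called with the length trend removed, as given at the end. Medians over whole chromosomes are given beside the genes, and a link of these differences to chromosome copy number was not tested. NCAPD2 lies on chromosome 12, where genes with a mean of 10 counts or more had a median of 0.02, and PDS5A on chromosome 4, with a median of -0.27. ANAPC1 and NCAPH lie on chromosome 2, with a median of -0.29. CDC16, SMC1A, NCAPD3 and RAD21 lie on chromosomes 13, X, 11 and 8, with medians of -0.18, 0.09, 0.07 and 0.01. STAG1 (0.02 ± 0.29), SMC4 (0.16 ± 0.24) and ANAPC13 (0.63 ± 0.26) lie on chromosome 3, with a median of 0.42, and were not called.

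Under oxaliplatin the lines differed in 13 genes (2 with more and 11 with less transcript in the resistant line, against 13.7% higher and 12.3% lower of all tested genes, and 22.4% and 20.5% of those with a mean of 10 counts or more). NCAPD2 was then lower by a log2 fold change of -2.48 ± 0.19, NCAPH by -2.26 ± 0.19 and CDCA5 by -2.06 ± 0.19. The 2 higher ones were APC/C genes. ANAPC13 was at 57, 83.9 and 76 CPM in HCT116 oxpl-R and 30.8, 35.2 and 24.9 CPM in HCT116 (1.25 ± 0.27, edgeR adjusted p = 0.000504), and ANAPC5 differed by 0.91 ± 0.22. With E1A alone 6 genes differed (1 higher, 5 lower), against 6.76% higher and 7.52% lower of all tested genes and 11% and 12.8% of those with a mean of 10 counts or more. With E1A + oxaliplatin 6 differed (2 higher, 4 lower), against 10.3% and 9.08% of all tested genes and 16.8% and 15.2% of those with a mean of 10 counts or more. Under E1A the share of the 37 genes called lower was thus near that of expressed genes, and under both agents it was not above it. With the GC trend removed 10 genes differed under E1A (2 higher, 8 lower) and 18 under both (2 higher, 16 lower). The shares above are from the main fit. No share of all genes is given here for the fit with the trend removed, so these counts are not read as a trait of the 37 genes. NCAPD2 and NCAPH were lower in HCT116 oxpl-R in all 4 conditions, with log2 fold changes of -1.29 ± 0.19 and -0.76 ± 0.19 under E1A and -1.70 ± 0.19 and -1.35 ± 0.19 under both agents.

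E1A on its own called none of the 37 genes in HCT116 and none in HCT116 oxpl-R with edgeR, and none with DESeq2 or limma (all tested genes: 0.407% and 0.210% called). At an unadjusted p below 0.05 there were also 0 in each line. Log2 fold changes ran from -0.74 (SMC6) to 0.35 (NCAPH2) in HCT116 and from -0.45 to 0.41 in HCT116 oxpl-R. When only the 6 HCT116 libraries concerned were fitted, 6 genes were called (NCAPH2 higher, ANAPC13, ANAPC4, CDC16, ESCO1 and SMC6 lower). The share of all genes called in that fit is not given. In the main fit none of 3 listed E2F targets was called for E1A alone in either line. In each line 1 of these targets had an unadjusted edgeR p below 0.05. The line by E1A interaction also called none of the 37 genes with edgeR, DESeq2 or limma, and 0 at an unadjusted p below 0.05 (0.00876% of all tested genes).

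E1A added to oxaliplatin raised 5 of the 37 genes in HCT116 oxpl-R and lowered none, while 1.28% of all tested genes (2.18% of those with a mean of 10 counts or more) were called higher. All 5 had fallen under oxaliplatin alone in that line: NCAPH, CDCA5, NCAPD3, SMC4 and NCAPG2. The oxaliplatin samples enter both comparisons, so a low value there lowers the one and raises the other. NCAPH was at 22.2, 15.7 and 17 CPM with oxaliplatin and at 44.5, 37.4 and 33.3 CPM with E1A as well (log2 fold change 1.07 ± 0.19, edgeR adjusted p = 0.000865). CDCA5 was at 54.9, 39.8 and 35.8 CPM and then 81.8, 80 and 104 CPM (1.03 ± 0.19, edgeR adjusted p = 0.00126). NCAPD3 was at 41.3, 33.3 and 33.6 CPM and then 84, 71.4 and 58 CPM (0.98 ± 0.19, edgeR adjusted p = 0.00264).

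Every sample with both agents lay above every oxaliplatin sample in these genes, and below every untreated sample of the line. SMC4 (0.93 ± 0.24, edgeR adjusted p = 0.0444) and NCAPG2 (0.84 ± 0.22, edgeR adjusted p = 0.0421) were nearer the threshold. SMC4 lost its call when any of 5 of the 6 libraries was left out and NCAPG2 when any of 4 was, so that 3 genes were called in 3 of the 6 fits. NCAPH, CDCA5 and NCAPD3 were called in all 6. NCAPH2 (0.68 ± 0.19, edgeR adjusted p = 0.0709) and NCAPD2 (0.59 ± 0.19, edgeR adjusted p = 0.139) were not called.

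Among the context genes, E2F1, a transcription factor that drives entry into S phase, was at 86.6, 103 and 97.8 CPM in untreated HCT116 oxpl-R, at 24.5, 20.3 and 20.7 CPM under oxaliplatin and at 106, 80.8 and 115 CPM under E1A + oxaliplatin. Thus it was low in the oxaliplatin group alone among these 3 groups. CCNE2, another of 3 listed E2F targets, was at 26.8, 28.3 and 26.9 CPM, then 3.64, 9.27 and 14.1 CPM. With both agents it was at 50.5, 48.3 and 51.3 CPM, above its untreated values. CCNE1, the third listed target, was not called in either comparison. Of 20 APC/C substrates 11 were higher when E1A was added (CDCA5 is one of them), and of 24 mitotic regulators 10. The lists share genes, and 1.28% of all tested genes (2.18% of those with a mean of 10 counts or more) were higher. In HCT116, E1A added to oxaliplatin called none of the 37 genes with edgeR, DESeq2 or limma, and 0 at an unadjusted p below 0.05 (0.0832% of all tested genes), with log2 fold changes from -0.20 to 0.56. Replicate 1 of the HCT116 E1A + oxaliplatin group stood apart, with a GC tilt of 0.52 against 0.20 and 0.06 in replicates 2 and 3. ANAPC5, for example, was at 70.5, 165.9 and 161.9 CPM in that group. The count stayed at 0 with each of the 6 libraries left out in turn. The difference between the lines in what E1A added was not tested. The E1A by oxaliplatin interaction called none of the 37 with edgeR, DESeq2 or limma in either line (0.0131% of all tested genes in HCT116, 0.0438% in HCT116 oxpl-R). At an unadjusted p below 0.05 there were 0 in HCT116 and 4 in HCT116 oxpl-R (CDCA5, NCAPH, NCAPD3 and SMC4).

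Of the 5 genes whose oxaliplatin response differed between the lines, the promoters of 4 are shown. They are a part of the genes that fell in HCT116 oxpl-R. RefSeq windows from 250 bases before to 50 after the start (GRCh38.p14) were found for 33 of the 37 genes, and not for NCAPH2, ESCO2, RAD21 and ESCO1. Searched on both strands were 4 E2F words (TTTGGCGC, TTTCCCGC, TTTGCCGC and TTTCGCGC), the cell cycle homology region CHR (TTTGAA) and the NF-Y box (CCAAT). Given are the 150 bases before the start, 5′ to 3′ on the gene's strand, with matches in capitals; they do not overlap one another. CDCA5 is at chr11:65084041-65084190 on the minus strand, with an E2F word. NCAPD2 is at chr12:6493952-6494101 on the plus strand, with a CHR and, on the opposite strand, a pair of NF-Y boxes (read here as ATTGG). NCAPH is at chr2:96335616-96335765 on the plus strand, with an NF-Y box. SMC4 is at chr3:160399500-160399649 on the plus strand, before the first of its 2 listed starts, with a CHR on the opposite strand. The 150 bases before its second start held no match. NCAPG2 and NCAPD3, which also fell in HCT116 oxpl-R, are not printed. In these 150 bases NCAPG2 had no match. NCAPD3 had NF-Y boxes alone before a listed start and no match before the other.
CDCA5: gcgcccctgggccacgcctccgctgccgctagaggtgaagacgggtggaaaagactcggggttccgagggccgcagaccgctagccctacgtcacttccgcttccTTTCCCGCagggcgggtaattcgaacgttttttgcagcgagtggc
NCAPD2: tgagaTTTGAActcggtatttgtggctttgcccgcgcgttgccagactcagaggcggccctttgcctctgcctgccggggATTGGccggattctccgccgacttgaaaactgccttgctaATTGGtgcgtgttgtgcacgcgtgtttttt
NCAPH: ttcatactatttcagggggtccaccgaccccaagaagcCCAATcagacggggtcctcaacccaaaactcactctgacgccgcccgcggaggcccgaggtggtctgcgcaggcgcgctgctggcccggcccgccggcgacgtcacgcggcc
SMC4: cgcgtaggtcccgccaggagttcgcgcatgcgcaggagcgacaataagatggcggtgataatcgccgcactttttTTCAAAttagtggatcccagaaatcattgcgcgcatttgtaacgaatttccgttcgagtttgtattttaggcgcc

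An E2F word stood in a window of 9 of the 33 genes (27.3%), against 3.99% of all 27305 symbols and 6.54% of the 10433 whose genes had a mean of 10 counts or more. The 9 were SMC1A, STAG1, STAG2, NIPBL, CDCA5, NCAPD3, SMC6, CDC16 and CDC23, and of these CDCA5, NCAPD3 and SMC1A were lower under oxaliplatin in HCT116 oxpl-R. A CHR word stood in 12 (36.4%, against 18.2% and 13.5%), among them 6 of the 7 condensin genes with a window: SMC2, SMC4, NCAPD2, NCAPD3, NCAPG and NCAPG2. An NF-Y box stood in 13 (39.4%, against 39.7% and 42.4%). The 33 genes have more windows each (51 in all) than the 27305 symbols (35116). Counted per window, an E2F word stood in 17.6% against 3.31%, a CHR word in 23.5% against 15.2% and an NF-Y box in 33.3% against 34.6%. A match describes the letters of the window and is no evidence of binding.

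Replicate 3 stood apart in HCT116 oxpl-R for a group of these genes. In 12 of the 37 it was the highest of the 3 replicates in all 4 groups of that line: STAG2, SMC3, ESCO1, ESCO2, SMC2, NCAPG, SMC5, SMC6, ANAPC4, ANAPC7, CDC23 and CDC27. In HCT116 none of the 37 genes had its highest value in replicate 3 of all 4 groups. How many of all tested genes had this form was not counted, so it is not read as a trait of the 37. NCAPG, a HEAT-repeat subunit of condensin I, was at 18.3, 16.3 and 82.3 CPM untreated, at 19.1, 22.3 and 95.1 CPM with E1A, at 10.2, 3.46 and 27.6 CPM with oxaliplatin and at 7.77, 9.36 and 49.5 CPM with both. It was lower with oxaliplatin than without in each replicate. STAG2, a STAG subunit of cohesin that is used in place of STAG1, had 26.6, 18.3 and 62.9 CPM untreated and 23.6, 9.65 and 65.9 CPM with oxaliplatin.

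The 12 genes have a median transcript GC of 37.6% (36.2% to 47.8%), and the other 25 of 44.8%. Of these 12, ESCO2 alone was called in the oxaliplatin response of HCT116 oxpl-R. NCAPG had a log2 fold change of -1.51 ± 0.66 (edgeR adjusted p = 0.227) and was called when the third oxaliplatin library was left out. SMC5 and SMC6, the pair of SMC subunits of the repair complex, were called in none of the 14 comparisons. In HCT116 oxpl-R, SMC6 was at 7.67, 7.16 and 27 CPM untreated and at 10.6, 4.04 and 20.2 CPM with oxaliplatin, and SMC5 differed by -0.25 ± 0.40. Of the 7 listed partners of SMC5/6, none was called in this response.

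**Figure D5:**
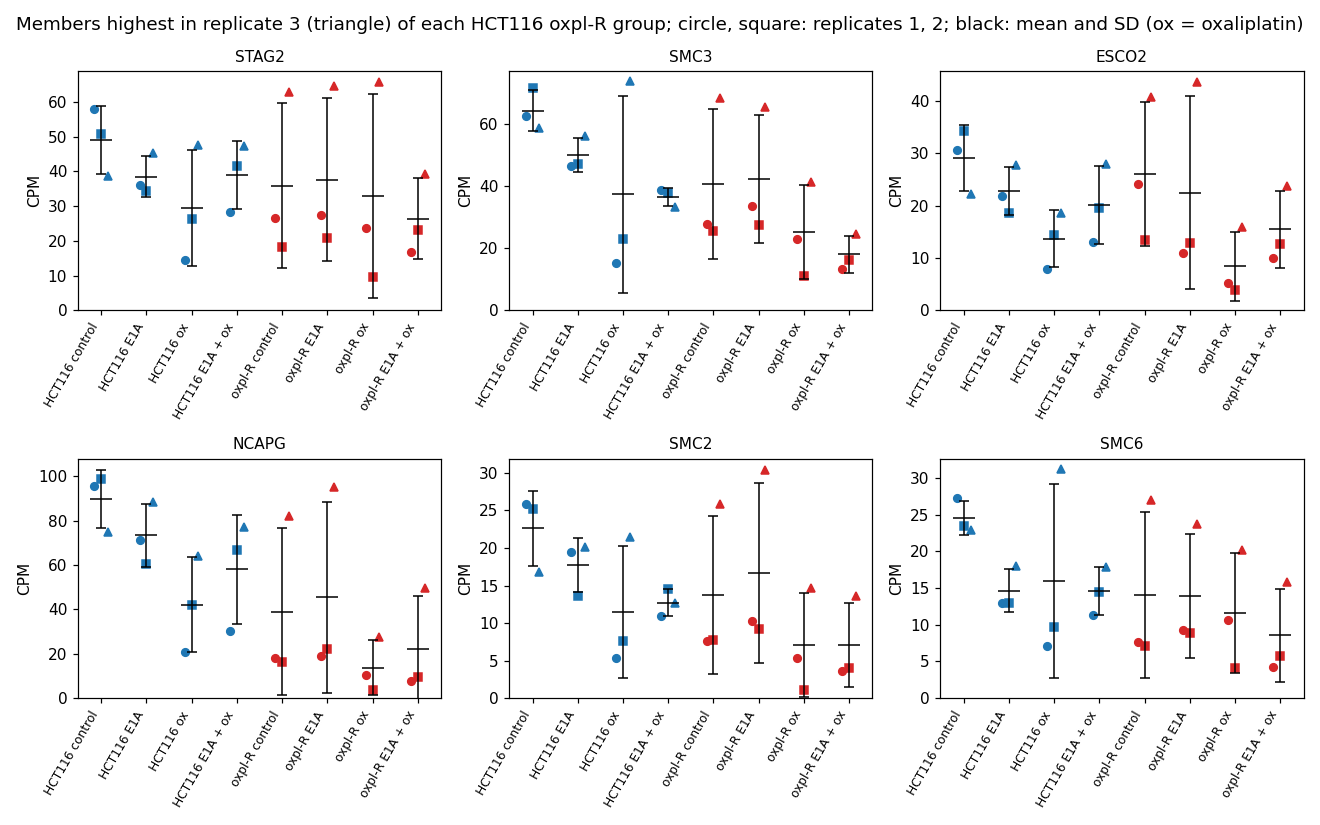
CPM (vertical axis, from 0) of STAG2, SMC3, ESCO2, NCAPG, SMC2 and SMC6 in the 8 groups (HCT116 in blue, HCT116 oxpl-R in red), with circles, squares and triangles for replicates 1, 2 and 3 and black marks for the mean and SD, cut at 0. The triangle is the highest point in each of the 4 HCT116 oxpl-R groups in every panel.

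The cohesin paralogs of meiosis stayed low. REC8, the meiotic kleisin, was at most 2.23 CPM in any sample, STAG3 at most 2.06 CPM, RAD21L1 at most 0.852 CPM and SMC1B at most 0.117 CPM. REC8 was nonetheless called higher in HCT116 oxpl-R without treatment, at 1.44, 1.9 and 1.8 CPM against 0.569, 0.874 and 0.857 CPM (log2 fold change 1.16 ± 0.35, edgeR adjusted p = 0.0228). Without treatment 7 of the 24 mitotic regulators and 5 of the 20 APC/C substrates were lower in HCT116 oxpl-R and none higher, against 6.91% lower of all tested genes and 11.7% of those with a mean of 10 counts or more. AURKB and FBXO5 are in both of these counts. KIF11, the motor that separates the spindle poles and one of the substrates, differed most (-1.67 ± 0.31).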

How the data were processed

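RNA-seq covered 24 samples in 8 groups, each of 3 biological replicates per the labels. Per the submitters' processing notes the tools were Trimmomatic and Salmon 1.6.0 with the GRCh38 build. The authors deposited estimated counts per gene, not normalized, in 2 tables. Estimates that were not whole (15.9% to 30.4% per sample) were rounded before testing. The 8 genes that the first table lacks were taken from the second (28004261 to 42613322 counts per sample) and tested within it. The last row of each table, which was cut off, was dropped.

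Counts were TMM-normalized and tested with edgeR 4.0.16 (quasi-likelihood test, R 4.3.3) in 1 fit of all 8 groups, and p-values were adjusted by the Benjamini-Hochberg method over all genes of the table. DESeq2 1.42.0, limma 3.58.1 on log2(CPM + 1), other normalization, filters, sample sets, trend corrections and leaving out each replicate were the alternatives. On data simulated for the HCT116 oxaliplatin response the edgeR step was tested before use. Transcript length and GC are from GENCODE 44 (the authors used GENCODE 47), and promoters from RefSeq. Figures were drawn with matplotlib 3.10.9.

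The members and lists were chosen with earlier results of these data known. Values in every sample are given, for each complex, for the called genes with the largest rise and fall in the untreated line difference or the responses to oxaliplatin and E1A, and for genes on which a later comparison turned. Same-numbered samples deviated together in the oxaliplatin response of HCT116 oxpl-R (correlations of 0.106, 0.293 and 0.385), where the replicate block called the same 10 genes. The labels call the replicates biological and do not say more of their source, so p-values measure the spread between these samples.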

Additional observations from a re-analysis of the deposited data

Results flagged for a closer look

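The response to oxaliplatin differed between HCT116 and HCT116 oxpl-R for 5 of the 37 genes by the test of the difference itself (edgeR line by oxaliplatin interaction). The difference in log2 fold change, HCT116 oxpl-R minus HCT116, was -1.74 for CDCA5, -1.42 for NCAPH, -1.41 for SMC4, -1.21 for NCAPH2 and -1.19 for NCAPD2. With 3 replicates a group, single samples were not tested for standing apart.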

How the results depend on the processing

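Over 35 alternative settings, the 67 called values of single genes gave 1169 values, of which 987 kept their direction and call, 182 kept their direction and lost the call, and 0 changed sign. Only called values were followed, so a change of sign was unlikely from the start. For SMC1A and SMC4, the setting with the second table for all members is the main fit itself.

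The number of the 37 genes called moved by over 1.5 times in these cases, and the cause was not tested. Shares of all genes called under these settings are not given. Fitting only the groups compared gave 16 in place of 8 for the untreated line difference, 6 in place of 0 for E1A in HCT116 and 3 in place of 5 for E1A added to oxaliplatin in HCT116 oxpl-R. Removing each library's length trend gave 5 for the untreated line difference and 6 in place of 14 for oxaliplatin in HCT116. Removing the GC trend, added after seeing the data, gave 2 for oxaliplatin in HCT116, 10 in place of 6 for the line difference under E1A, 18 in place of 6 under E1A + oxaliplatin and 8 in place of 5 for the line by oxaliplatin interaction. Removing both trends, also added later, gave 4, 10, 19 and 9 for the same comparisons, 8 for E1A added in HCT116 oxpl-R and 2 in place of 0 for the E1A by oxaliplatin interaction there. With limma 5 were called for the untreated line difference and 3 for that under E1A, and with the second table for all members 3 for the latter.

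Leaving out each replicate gave 4 to 7 genes for the untreated line difference, 13 to 16 under oxaliplatin, 2 to 8 under E1A and 5 to 9 under both. It gave 5 to 18 for oxaliplatin in HCT116 and 8 to 11 in HCT116 oxpl-R, 3 to 5 for E1A added in HCT116 oxpl-R, 4 to 8 for the line by oxaliplatin interaction and 0 elsewhere.

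The replicate block called 24 genes for oxaliplatin in HCT116 (4 higher, 20 lower), where same-numbered samples did not deviate together (correlations of -0.09, -0.078 and -0.156), so that the number is only a name there. It moved no other count by over 1.5 times. All 37 genes had counts in every sample, down to 1.14 CPM for SMC2, and whether depth kept the low ones from a call was not tested.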
